A study of Mus musculus with 2 samples.

Results

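The Clcn5-hosted miR-532/362 cluster is a set of 5 microRNA (miRNA) genes, Mir532, Mir188, Mir362, Mir501 and Mir500, that lie on 1 strand inside the X-linked gene Clcn5. All 5 were found by gene symbol among the 1973 miRNA genes of the count tables, and among the 1894 rows with an annotated position no other lies within Clcn5. They were chosen by locus and by their own-strand levels in these libraries, to describe how unequal genes of 1 host transcript are, so the levels below are a description and were not tested. Small RNA shorter than 30 bases was sequenced from B6NCrl mice on the day of birth (postnatal day 0), from dissected neural tube. The samples form 1 group of 2 libraries, each from the single neural tube of a pup, pup 2 and pup 1, and both pups came from 1 dam. No treatment, mutation or second condition was compared, and no sex is recorded for the pups. Spreads are SDs over these 2 littermates, and p-values compare 2 libraries, not conditions.

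A miRNA is cut from a hairpin precursor within a longer transcript, first in the nucleus and then in the cytoplasm. Each arm of the hairpin, 5p or 3p, can give a mature miRNA, which pairs with messenger RNAs mainly through its seed, bases 2 to 8. Genes in 1 intron are usually copied into RNA together with their host, and the mature level of each also depends on how its hairpin is cut, loaded and degraded. Clcn5 encodes ClC-5, a chloride/proton exchanger of endosomes best known from the kidney, where its loss causes Dent disease. Of the cluster, miR-188 has been described as a regulator of dendritic spines in rat hippocampal neurons and of the choice between bone and fat in mouse marrow stroma. The miR-501-3p arm has been described as a repressor of a glutamate receptor subunit in rat neurons, and miR-501 also occurs in mouse muscle progenitor cells.

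The mature arms are shown because the seeds decide which members could act on like targets; capitals mark the seed, and the sequences are those of RefSeq for GRCm38.p6, the build also called mm10. The RefSeq table gave 5 precursors and 9 mature arms for the 5 genes. The miR-532-5p arm is named here without a sequence, and the seeds and arm comparisons below are over the 9 listed arms only. The counts do not tell the arms of a precursor apart.
miR-532-3p: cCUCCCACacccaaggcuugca
miR-188-5p: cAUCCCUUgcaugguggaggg
miR-188-3p: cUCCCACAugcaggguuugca
miR-362-5p: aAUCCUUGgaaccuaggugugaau
miR-362-3p: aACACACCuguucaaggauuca
miR-501-5p: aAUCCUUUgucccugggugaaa
miR-501-3p: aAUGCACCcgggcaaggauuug
miR-500-5p: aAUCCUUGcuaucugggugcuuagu
miR-500-3p: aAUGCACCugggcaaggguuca

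The 9 arms held 7 different seeds. The 3p arms of Mir501 and Mir500 shared the seed AUGCACC, and the 5p arms of Mir362 and Mir500 shared AUCCUUG. The 5p arm of Mir501 had AUCCUUU, which no other arm among the 1738 mature miRNAs of the table had. Mir500 therefore shared a seed with Mir362 through its 5p arm and with Mir501 through its 3p arm. Outside the cluster, 2 of the 7 seeds occurred in the table. The seed of miR-362-3p was also that of miR-329-3p, whose gene Mir329 stood at 324 CPM (counts per 1000000 own-strand counts of the library) in pup 2 and 360 CPM in pup 1. That of miR-188-5p was also that of miR-7061-3p, whose gene Mir7061 had no counts in either pup.

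The whole precursors of both pairs of genes that stood side by side in level are shown next, with the arms listed by RefSeq in capitals, so that the likeness of Mir501 and Mir500 can be seen against that of Mir532 and Mir188.
Mir532: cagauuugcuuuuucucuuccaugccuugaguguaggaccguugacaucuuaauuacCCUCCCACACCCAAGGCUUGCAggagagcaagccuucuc
Mir188: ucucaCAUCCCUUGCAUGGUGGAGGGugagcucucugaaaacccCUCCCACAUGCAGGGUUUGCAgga
Mir501: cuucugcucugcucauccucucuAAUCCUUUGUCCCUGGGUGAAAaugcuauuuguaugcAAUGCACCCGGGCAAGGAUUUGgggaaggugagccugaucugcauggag
Mir500: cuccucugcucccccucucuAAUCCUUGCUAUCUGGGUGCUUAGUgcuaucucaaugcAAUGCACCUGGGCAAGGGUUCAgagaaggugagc

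The precursors of Mir501 and Mir500 were the most alike of the 10 pairs, with 67.3% identical positions in a global alignment and a longest shared stretch of 14 bases. The other 9 pairs had 42.7 to 57.9% identical positions and longest shared stretches of 5 to 10 bases. Mir532 and Mir188 were identical at 49 of 98 positions, with 10 bases. Between the mature arms, miR-500-3p and miR-501-3p were identical at 18 of 22 positions. Counted from 1 at the 5′ end, with the base of miR-500-3p first, the differences were U9C, G18A, C21U and A22G, all outside the seed. The 3p arms of Mir532 and Mir188, identical at 17 of 22 aligned positions, had different seeds that overlap when shifted by a base. Arms of genes less close in level were also alike. The 3p arms of Mir362 and Mir500 were identical at 17 of 22 positions, and the 5p arms of Mir362 and Mir501 at 18 of 24. No relation between likeness of sequence and level was tested.

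**Figure D1:**
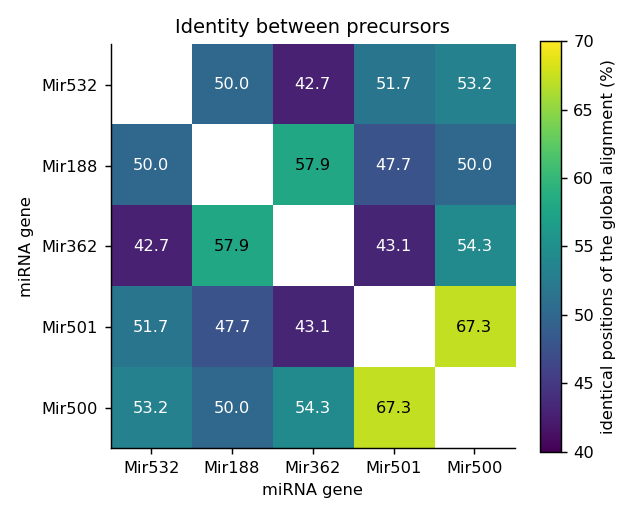
Identity between the precursors of the 5 miRNA genes. Each cell gives the percent of identical positions in the global alignment of the genes named on the 2 axes, and the diagonal is left blank. The pair Mir501 and Mir500 stands highest at 67.3%, and Mir532 with Mir362 lowest at 42.7%.

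In all, 2202 annotated miRNA genes, the members among them, were searched on both strands. None of the 5 precursors shared a stretch of 22, 20 or 18 bases with another of them, genes at an overlapping position aside. The longest stretch of a listed arm found in any other RefSeq precursor was 9 to 11 bases. This bears on the counts, because the authors' gene counts leave out reads with several places in the genome. Places in the genome outside annotated miRNA genes were not searched here. The precursors were 65 to 109 bases long with a GC content of 46.2 to 55.9%, and their lowest folding energy at default settings was -46.9 kcal/mol for Mir501, -41.9 for Mir500, -33.2 for Mir532, -28.8 for Mir188 and -28.5 for Mir362. The genes with the highest counts were not those with the lowest folding energy. The energies were not divided by precursor length, and no relation between energy and level was tested. The levels below are counts per gene and were not divided by length, since the listed arms had nearly 1 length, 21 to 25 bases.

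Clcn5 spans chrX:7153810-7319358 on the minus strand (mm10). In the order of the transcript, Mir532 (ENSMUSG00000070139.1) lies at chrX:7248402-7248497, Mir188 (ENSMUSG00000065398.1) at chrX:7247989-7248056, Mir362 (ENSMUSG00000070100.1) at chrX:7241982-7242046, Mir501 (ENSMUSG00000076251.1) at chrX:7241243-7241351 and Mir500 (ENSMUSG00000070108.2) at chrX:7237683-7237774. All 5 are intronic. They lie in 1 intron of 103648 bases in 3 of the 5 annotated Clcn5 transcripts, and outside the span of the other 2. The cluster covers 10815 bases, and its ends are 68161 bases from the exon upstream of Mir532 and 24672 bases from the exon downstream of Mir500. Mir532 and Mir188 are 345 bases apart, Mir188 and Mir362 5942, Mir362 and Mir501 630, and Mir501 and Mir500 3468.

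Totals of own-strand miRNA counts were 3660693 in pup 2 and 3216453 in pup 1, so that 1 count equals 0.273 CPM and 0.311 CPM. Reads that fitted several places made up 35.5% ± 0.15 of all reads (SD, n = 2). A gene with at least 10 counts in each pup is called detected, which holds for 352 of 1973. Of the markers of the labelled tissue, the Hox-region genes Mir10a, Mir10b and Mir196b and the neuronal genes Mir137, Mir153 and Mir128-1 were all detected. Endothelial Mir126a, hepatocyte Mir122, the red blood cell genes Mir451a and Mir144 and the immune genes Mir150, Mir223 and Mir155 were detected too. Of 8 measured striated muscle genes 3 were detected, in counts that leave out reads with several places. In whole tissue, fewer cells of a type and less RNA per cell cannot be told apart.

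All 5 genes of the cluster were detected, and they were far from equal. Mir532 and Mir188 stood close together at the top, Mir500 and Mir501 close together near the median of all detected genes, and Mir362 lowest. The cluster as a whole had 8502 counts in pup 2 and 6996 in pup 1. That is 2323 CPM and 2175 CPM, or 2249 CPM ± 104 (SD, n = 2), which was 0.232% and 0.218% of all miRNA counts. The median of the 5 mean levels was 243 CPM, against 200.5 CPM over the 352 detected genes. The genes detected on the X chromosome numbered 40 of 120 measured, and the cluster held 8.40% of their counts in pup 2 and 9.06% in pup 1.

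Mir532, the first gene of the cluster in the transcript, had 3294 counts in pup 2 and 2718 in pup 1. These are 899.8 CPM and 845 CPM, with exact 95% binomial intervals of 869 to 931 CPM and 814 to 877 CPM that cover counting error only. Its mean of 872 CPM ± 38.7 (SD, n = 2) ranked 102 among all genes and stood at place 7 among those of the X chromosome.

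Mir188 had 3048 counts in pup 2 and 2596 in pup 1, or 833 CPM and 807 CPM, with a mean of 820 CPM ± 18.1. It ranked 105. In each pup it lay just below Mir532, by 1.08-fold in pup 2 and by 1.05-fold in pup 1. The mean log2 difference of 0.09 between them was smaller than 0.21, the SD of log2 levels between the pups pooled over genes of like abundance.

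Mir500, the last gene in the transcript, had 856 counts in pup 2 and 812 in pup 1, or 234 CPM and 252 CPM, with a mean of 243 CPM ± 13.2. Mir501 had 988 counts in pup 2 and 653 in pup 1, or 269.9 CPM and 203 CPM, with a mean of 236 CPM ± 47.3. Mir501 lay above Mir500 in pup 2 and below it in pup 1, so the pups gave these genes opposite orders. Their log2 difference, Mir500 minus Mir501, was -0.21 in pup 2 and 0.31 in pup 1 with a mean of 0.05, again smaller than the pooled SD of 0.21. Mir188 lay 3.56-fold above Mir500 in pup 2 and 3.20-fold above it in pup 1, a mean log2 difference of 1.75.

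Mir362 had 316 counts in pup 2 and 217 in pup 1, or 86.3 CPM and 67.5 CPM, with a mean of 76.9 CPM ± 13.3. It ranked 223, and 63.1% of the detected genes stood higher. Mir501 lay 3.13-fold above Mir362 in pup 2 and 3.01-fold above it in pup 1, a mean log2 difference of 1.60, where the pooled SD was 0.22. The distance between top and bottom, Mir532 over Mir362, was 10.4-fold in pup 2 and 12.5-fold in pup 1. Of all 10 pairs of members, 9 had 1 order in both pups, and the exception was Mir500 with Mir501. The pooled SDs are given as a scale for these differences and not as a test. They hold differences between the pups only, and say nothing of errors common to both libraries.

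**Figure D2:**
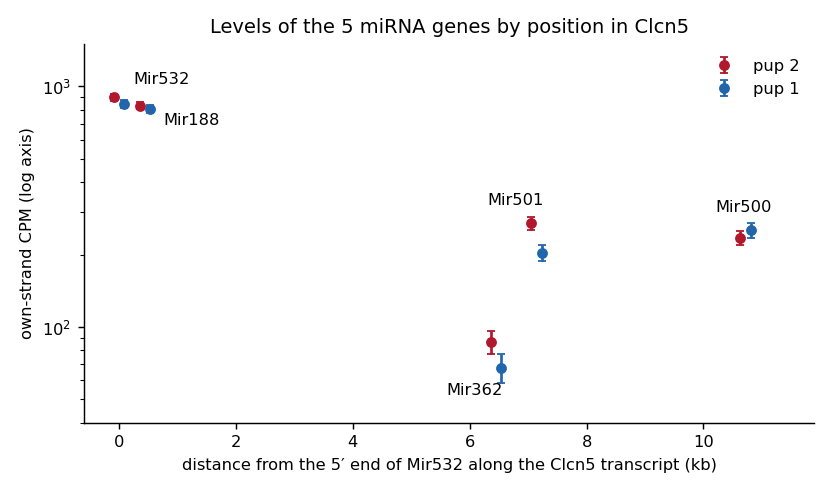
Level of each gene of the cluster against its distance along the Clcn5 transcript. The x axis gives kilobases from the 5′ end of Mir532, with the points of pup 2 drawn slightly left and those of pup 1 slightly right of the true place; the y axis gives own-strand CPM on a log axis, and bars are exact 95% binomial intervals. Mir532 and Mir188 lie between 807 and 899.8 CPM, Mir362 is lowest in both pups, and Mir501 and Mir500 change order between the pups.

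Along the transcript the levels did not form a single slope. They were high at Mir532 and Mir188 at the 5′ end, lowest at Mir362 in the middle, and intermediate at Mir501 and Mir500 toward the 3′ end. Mir362 and Mir501, 630 bases apart, differed 3.08-fold in mean level, whereas Mir501 and Mir500, 3468 bases apart, differed 1.03-fold. Each close pair in level also neighbours in the transcript. With 5 genes, no relation between level and position was tested.

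As shares of the cluster's counts, Mir532 held 38.7% in pup 2 and 38.9% in pup 1, and Mir188 held 35.9% and 37.1%. These genes together held 74.6% in pup 2 and 75.96% in pup 1, or 75.3% ± 0.96 (SD, n = 2). Mir362 held 3.72% in pup 2 (exact 95% interval 3.32 to 4.14%) and 3.10% in pup 1 (2.71 to 3.54%), with overlapping intervals. Mir501 held 11.6% (10.9 to 12.3%) in pup 2 and 9.33% (8.66 to 10.04%) in pup 1, and its intervals did not overlap. Mir500 held 10.1% (9.44 to 10.7%) in pup 2 and 11.6% (10.9 to 12.4%) in pup 1, and its intervals did not overlap either, in the opposite direction. These intervals cover counting error only. Overlap was not counted over other genes, so it is given as a description and not as a difference between the pups. The shares add to a whole, so a rise of one lowers the others.

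**Figure D3:**
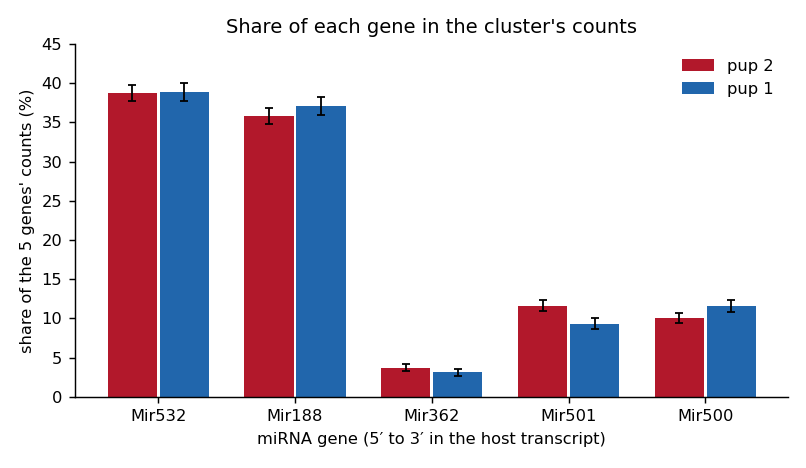
Share of each gene in the counts of the 5 genes of the cluster. Bars start at 0 and give the percent in pup 2 (left) and pup 1 (right), error bars are exact 95% binomial intervals for counting error, and genes run from 5′ to 3′ in the host transcript. Mir532 and Mir188 each hold over 35% in both pups, and Mir362 holds 3.72% in pup 2 and 3.10% in pup 1.

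No member had a read on the opposite strand in either pup, against 81286 opposite-strand reads in pup 2 and 68949 in pup 1 over all genes. A count of 0 allows up to 3 counts, or 0.820 CPM in pup 2 and 0.933 CPM in pup 1.

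Each gene's split of reads between the pups was tested by an exact binomial test (two-sided) against the split of the library totals, with Benjamini-Hochberg adjustment over all genes with at least 10 counts summed. This test covers counting error only and has no replicate behind it. Of 413 tested genes 169 were called, a background of 40.9%, with 25.7% higher and 15.3% lower in pup 2. In the cluster 3 of 5 genes were called, all higher in pup 2. Among genes with at least the 533 summed counts of the cluster's lowest member, 64.1% of 223 were called. The share in the cluster, 60.0%, was near that of these genes. They have no upper limit of depth, and many hold more counts than any member.

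Mir501 rose by a log2 ratio of 0.41 in pup 2 over pup 1 (adjusted p = 6.7e-08 by the exact binomial test), or 1.33-fold. Mir362 rose by 0.35 (adjusted p = 0.015 by the same exact test), or 1.28-fold. Among the detected genes, 21.6% had a log2 ratio larger in size than that of Mir501 and 25.6% one larger than that of Mir362. Mir532 had a log2 ratio of 0.09 (adjusted p = 0.039, exact binomial test), which was no longer called with TMM or DESeq2 scaling (adjusted p = 0.32 and 0.35), without Mir10b in the total (0.15) or with no count minimum (0.065). Mir188 had a log2 ratio of 0.04 (adjusted p = 0.39) and Mir500 of -0.11 (adjusted p = 0.23), neither called by the exact test.

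The median log2 ratio of the 5 members was 0.09, against 0.04 over all tested genes, and their summed counts had a log2 ratio of 0.09. The ratios of the members ran from -0.11 to 0.41, and the SD of the log2 ratio over the detected genes was 0.37. Whether the members differed from each other in this ratio was not tested. Each of these values rests on 1 library per pup.

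**Figure D4:**
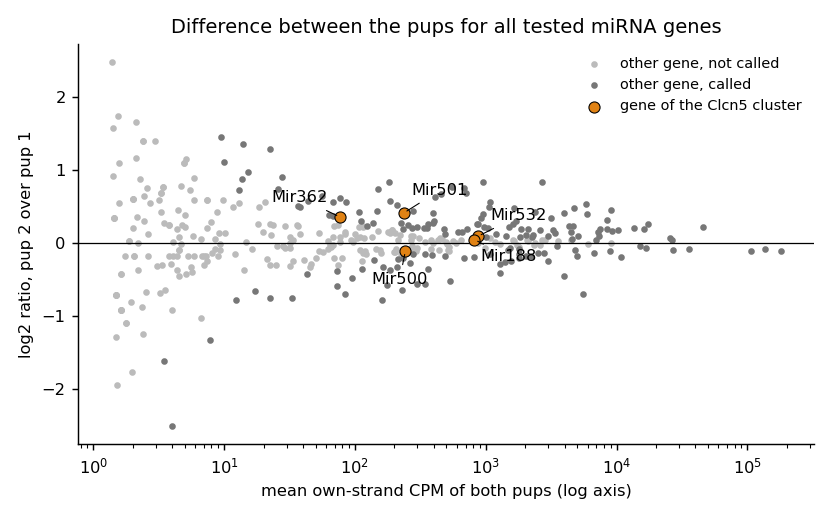
Log2 ratio of pup 2 over pup 1 against the mean level of both pups for the 413 tested miRNA genes. The x axis is mean own-strand CPM on a log axis; grey points are other genes, darker where called by the exact binomial test, and the large points are the 5 genes of the cluster. Mir501 and Mir362 lie at 0.41 and 0.35, and the other 3 genes lie between -0.11 and 0.09, all within the cloud of genes of like level.

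Levels of marker genes also differed between the pups, and their part in these ratios was not tested. The 3 sensory genes, Mir183, Mir96 and Mir182, summed to 5392 CPM in pup 2, against 3233 CPM in pup 1. The 3 neuronal genes summed to 22509 CPM in pup 2, against 19570 CPM in pup 1. The Hox-region genes Mir10a, Mir10b and Mir196b summed to 309851 CPM in pup 2, against 334557 CPM in pup 1. By the exact test all 3 were called lower in pup 2, and all 3 sensory and all 3 neuronal genes higher. That test called 40.9% of all 413 tested genes, and 64.1% of the 223 with at least 533 summed counts, a depth each of these genes exceeded. The striated muscle list, with Mir206, Mir499 and Mir208b detected, summed to 129 CPM in pup 2 and 88.0 CPM in pup 1. Its genes Mir1a-1, Mir133a-1 and Mir133a-2 were at 0, in counts that leave out reads with several places. In pup 2 against pup 1, the red blood cell genes Mir451a and Mir144 summed to 152 CPM against 128 CPM, with Mir144 at 28.4 CPM against 35.4 CPM. The 3 immune genes summed to 539 CPM against 491 CPM. Of these, Mir223 stood at 222 CPM against 149 CPM, Mir150 at 201 CPM against 213 CPM and Mir155 at 116 CPM against 129 CPM. Endothelial Mir126a stood at 26007 CPM against 27838 CPM, and hepatocyte Mir122 at 64.2 CPM against 104 CPM. Of the muscle, blood, immune, endothelial and hepatocyte genes, Mir206, Mir499, Mir451a and Mir223 were called higher in pup 2. Mir126a and Mir122 were called lower, and the other tested genes of these lists were not called.

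Other X-linked miRNA genes, listed by locus, gave these counts of calls between the pups by the exact test. Over all genes, 40.9% of 413 tested were called, and 64.1% of the 223 with at least 533 summed counts. In the miR-322 cluster, whose members slow the cell cycle, 5 of 7 detected genes were higher in pup 2, while Mir450-1 (log2 ratio -0.40) and Mir450-2 (0.73) were not called. In the miR-106a-363 cluster, a relative of miR-17-92, none of 5 tested genes was called, and in the Htr2c miRNAs none of 4. Mir221 and Mir222 had 1 of 2 higher, and Mir98 and Mirlet7f-2 had 2 of 2 higher. For comparison off the X chromosome, miR-17-92, a cluster of proliferating cells, had 3 of 6 higher and 1 lower. The detected genes of these lists ran from 8465 CPM (Mir322) to 5.44 CPM (Mir450-2), from 157 CPM (Mir363) to 18.1 CPM (Mir18b), from 300.3 CPM (Mir1298) to 5.84 CPM (Mir764), from 440.4 CPM (Mir221) to 233 CPM (Mir222), from 2610.2 CPM (Mir98) to 1872 CPM (Mirlet7f-2) and, for miR-17-92, from 5069 CPM (Mir17) to 5.88 CPM (Mir19b-1). The loci differ in depth, and calls were more frequent among genes of high counts. A difference in calls between the Clcn5 cluster and these loci was not tested.

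To set the inequality within the Clcn5 cluster beside that of other miRNA clusters, sets of at least 3 measured genes on 1 strand with gaps of at most 10 kb were formed from the annotation. Of 25 such sets, 12 had at least 3 detected genes. The log2 of the highest over the lowest detected gene was 3.50 in the Clcn5 cluster, an 11.3-fold range in mean level, against 2.28 to 10.7 over the 12 clusters with a median of 5.89. Ordered from the smallest range, the Clcn5 cluster took place 4. Its leading gene Mir532 held 38.8% of the counts, against 36.1 to 95.9% for the leading genes of the 12 clusters with a median of 48.7%, also place 4 from the smallest.

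The other X-linked clusters lay on both sides. The cluster led by Mir363 had a log2 range of 3.12 and a leading share of 37.1%, and that led by Mir322 a log2 range of 10.6 and a leading share of 86.2%. The autosomal cluster led by Mir17 had 9.75 and 55.9%. In 5 of the 12 clusters the lowest detected gene shared a 22-base stretch with another miRNA gene, which the Clcn5 genes did not. Without such genes 10 clusters were left, and the ranges of the Mir322 and Mir17 clusters were 7.25 and 7.43. The median range was 4.82, and the Clcn5 cluster at 3.50 again took place 4 by range. The order by leading share did change. The Clcn5 cluster at 38.8% then lay below the Mir363 cluster at 39.3%, and only the cluster led by Mir302d, at 38.5%, stood lower. The clusters differ in their number of genes and in depth, and no test of these differences was made.

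**Figure D5:**
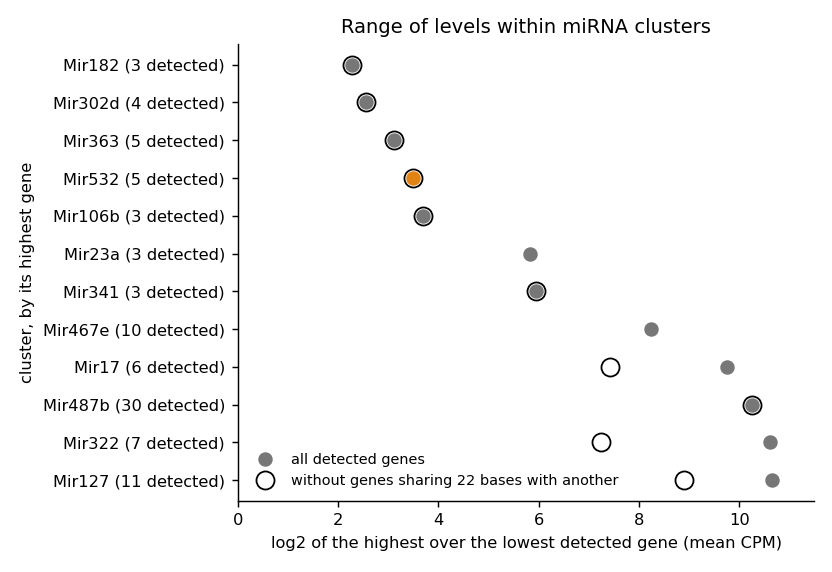
Range of levels within each of 12 miRNA clusters. The x axis gives the log2 of the highest over the lowest detected gene by mean CPM, each row is a cluster named by its highest gene, filled points use all detected genes and open circles leave out genes that share 22 bases with another miRNA gene. The Clcn5 cluster, in colour at 3.50, stands at place 4 from the top, and the clusters of Mir23a and Mir467e have fewer than 3 genes left for an open circle.

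The genes outside the cluster nearest to Mir532 in level, by the distance of log2(CPM + 1) over the 2 libraries, were Mir383 (distance 0.063), Mir128-2 (0.12) and Mir34c (0.13). In pup 2 against pup 1, Mir383 stood at 877 CPM against 876 CPM, Mir128-2 at 943.5 CPM against 792 CPM, and Mir34c at 929 CPM against 776 CPM. With 2 libraries this likeness says no more than that the levels were close.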

How the data were processed

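Small RNA libraries from the neural tubes of 2 newborn littermates were analysed as 1 group of 2 replicates, numbered as in the labels. For each miRNA gene the authors deposited raw counts on either strand, its own strand and the opposite strand, on mm10 with GENCODE M4 per the accompanying deposited text; the aligner is not given in the sources used here. Classes naming no gene (unmapped 10.9%, multimapping 35.5%) stayed out of totals. Here, own-strand counts were scaled to CPM per own-strand total. Symbols and positions came from GENCODE M21 (same build), which held 1894 of the 1973 Ensembl identifiers.

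Differences between members in mean log2(CPM + 1) are given beside the SD between pups, pooled within 4 abundance classes of the 352 detected genes. Pups were compared with an exact two-sided binomial test, with 0.5 added to counts in log2 ratios and a threshold of 0.05. The test was tried on simulated counts that held counting error only, which says nothing of its behaviour under variation between animals. With 1 group, edgeR had no contrast to test and served for TMM scaling only, DESeq2 for size factors. Sequences were aligned with Biopython 1.88 and folded with RNAfold 2.7.2. The members and lists were chosen with earlier results of these data known. The named genes are the 5 members, the 3 genes nearest to the leading member, and the highest and lowest detected gene of each X-linked list and of miR-17-92. Mir450a-1, Mir450a-2 and Mir1a-2 of the lists were not matched by symbol (Mir450-1 and Mir450-2 were added from the annotated miR-322 cluster after their values were seen), and Mir660 and Mir502 were not analysed here. Other software was Python 3.11.15 with scipy 1.17.1, numpy 2.4.6, matplotlib 3.10.9 and pandas 2.3.3, and R 4.3.3 with DESeq2 1.42.0 and edgeR 4.0.16.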

Additional observations from a re-analysis of the deposited data

How the results depend on the processing

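Alternatives were TMM and DESeq2 scaling, totals without Mir10b or with all reads, either-strand counts, other count minimums and pseudocounts, other gaps between clustered genes, shorter shared stretches, and leaving out each pup. A comparison of clusters without genes sharing 22 bases, and a background of genes with at least 533 summed counts, were added after seeing the data. The order of the members is fixed under a change of total, so scaling is no sign of its stability. The cluster total became 2744 CPM without Mir10b and 1139 CPM per all reads, by construction of the totals; the members' CPM moved with them. Without replicate 1 the log2 difference of Mir500 minus Mir501 was -0.21 and without replicate 2 it was 0.31, against 0.05 over both pups. The 3 calls of members became 2 with TMM, DESeq2, without Mir10b or with no count minimum, each time through loss of Mir532, while the calls over all genes ran from 160 to 180. With gaps of at most 50 kb, the Clcn5 cluster took place 6 of 15 by range; with gaps of at most 3 kb it held no set of 3 genes and gave no value. No paired analysis was possible because the samples form 1 group. Depth limits Mir362 most, with 217 counts in pup 1.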
